A study of Mus musculus with 8 samples.

Results

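Intron-only clusters are the groups of reads, sequenced after a pulldown of tagged Argonaute from mouse forebrain, that the deposited table places in introns alone. They are the clusters of the deposited table that name a gene in its intron column and carry no entry for 3' UTR, coding sequence, 5' UTR or circular RNA. The rule was met by 27788 of 70142 clusters, which is 39.6% (95% Wilson interval 39.3 to 40.0), and these held 647389 of 1834586 reads, or 35.3%. No read value entered the rule. The intervals here and below cover counting error only, and whether PCR copies of a molecule were counted more than once is not stated.

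The study used FLAG-Ago HITS-CLIP, a method that links Argonaute proteins to the RNA they touch with ultraviolet light and then sequences the RNA that is pulled down with the protein. Per the labels, 5 Flag-Ago2 libraries came from mice with Camk2a-cre and Rosa-Stopfl/fl-Flag-Ago2, in which Cre driven by the Camk2a promoter releases a Flag-tagged Ago2 from a stop cassette at the Rosa26 locus. The 3 control libraries came from mice with that allele, Rosa-Stopfl/fl-Flag-Ago2, and without Cre. All mice were 8 to 14 weeks old, each pulldown with the M2 FLAG antibody took part of a single forebrain, and an allele at Rosa26 leaves the mouse's own Ago2 gene in place. The libraries stem from 3 experiments, and the stated purpose was to find miRNA seed targeting in Camk2a neurons. The table gives 1 pooled read count per cluster and 0 columns for a single library or group. It therefore holds no difference between Flag-Ago2 and control mice, no background in control mice, no depth per library and no spread between replicates, and every value below is a description of the pooled clusters.

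Introns are transcribed with the gene and cut out of the precursor RNA in the nucleus, so most intron sequence is short-lived and nuclear, while miRNA-guided repression by Argonaute is best known from the 3' UTRs of messenger RNAs in the cytoplasm. A miRNA recognises its targets mainly through its seed, the bases next to the first base at its 5' end. Genes of the synapse and of neuronal adhesion are among the longest in mammals, and nearly all of their length is intron. Many miRNAs and small nucleolar RNAs are themselves encoded within introns of other genes.

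Shown here are miR-128, miR-27, miR-29 and let-7, which are abundant in brain and whose seeds the results use. The seeds of miR-124 and miR-9 are used too and are not shown. Both arms of miR-28a are added because its gene lies under a deep cluster, and no matches to its seeds are reported. The mature sequences are given 5' to 3' from RefSeq (GRCm38.p6), with bases 2 to 8 in capitals.
miR-128-3p: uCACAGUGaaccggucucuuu
miR-27b-3p: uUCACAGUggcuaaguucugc
miR-29a-3p: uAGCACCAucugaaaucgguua
let-7a-5p: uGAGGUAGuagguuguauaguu
miR-28a-5p: aAGGAGCUcacagucuauugag
miR-28a-3p: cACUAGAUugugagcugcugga
The 6-mers that pair with bases 2 to 7 of miR-128 and miR-27 overlap by 5 of their 6 letters, so a single stretch of RNA can match both.

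Whole cluster sequences could be read for members that lie inside an annotated GENCODE M21 transcript, such as one with a retained intron, and 4 of these are shown because they show how the matches sit in a cluster. They are among the deepest such clusters with a match to the family, and shallower than the deepest members overall. Members of this kind touch an annotated exon, unlike 94.5% of all members. The Ttc7b and Kpna4 clusters lie in transcripts of other genes, Gm48382 and Gm37558. The Cdip1 and Washc1 clusters lie in retained-intron transcripts of their own genes. Each is given 5' to 3' on the strand of its gene (GRCm38), with the 6-mer opposite miRNA bases 2 to 7 in capitals.
Ttc7b, miR-128: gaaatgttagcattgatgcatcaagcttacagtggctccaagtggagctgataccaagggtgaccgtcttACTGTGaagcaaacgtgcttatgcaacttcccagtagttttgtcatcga
Cdip1, miR-128: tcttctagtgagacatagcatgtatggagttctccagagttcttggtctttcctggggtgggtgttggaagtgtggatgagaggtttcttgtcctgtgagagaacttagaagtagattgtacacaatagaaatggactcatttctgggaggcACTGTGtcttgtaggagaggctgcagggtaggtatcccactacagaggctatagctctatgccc
Kpna4, miR-27: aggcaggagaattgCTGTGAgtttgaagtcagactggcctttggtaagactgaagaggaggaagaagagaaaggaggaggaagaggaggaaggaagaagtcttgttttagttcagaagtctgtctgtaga
Washc1, miR-29: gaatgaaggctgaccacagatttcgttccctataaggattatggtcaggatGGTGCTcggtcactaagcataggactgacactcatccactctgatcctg
The Ttc7b cluster (chr12:100366662-100366780, minus strand) held 152 reads, and its miR-128 match starts at base 71 and a miR-27 match at base 72, so both share a stretch. The Cdip1 cluster (chr16:4787967-4788182, minus strand) held 54 reads, with its miR-27 match at base 94 and its miR-128 match apart from it at base 153. The Kpna4 cluster (chr3:69120613-69120742, minus strand) held 125 reads and matches neither miR-128 nor miR-29. The Washc1 cluster (chr17:66116154-66116253, plus strand) held 86 reads and matches neither miR-128 nor miR-27.

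Most intron-only clusters were shallow and narrow. They held 10 to 4720 reads with a median of 18 (interquartile range 13 to 27), and the lowest value of 10 is that of the whole table. The median was 21 reads in the 9284 clusters in 3' UTRs, 21 in the 12960 in coding sequence, 19 in the 4916 intron clusters that carry a circRNA identifier and 15 in the 12108 without annotation. The median width was 122 bases (interquartile range 106 to 158). The 10 deepest intron-only clusters held 2.14% of all intron-only reads and the 100 deepest 5.28%, so the reads were spread over many sites. At least 100 reads were found in 214 members, which lie in 176 genes.

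The label was checked against the annotation. Of the intron-only clusters, 26259, or 94.5% (94.2 to 94.8), touched no exon of any GENCODE M21 transcript on their strand. Another 1181, or 4.25%, touched an exon of the gene they name, and 348, or 1.25%, an exon of another gene only. A processed pseudogene, the intronless copy of a messenger RNA, lay under 85 members with a median of 19 reads, and reads from the parent gene cannot be told apart from reads of such a copy. The deepest of these were over Gm49037 in Mapk8 with 277 reads and over Gm6352 in Cntnap2 with 162 reads. An annotated gene on the opposite strand was named for 314 members.

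Members were found in 6106 genes, and most genes had few. A single cluster was found in 2776 genes, at least 10 in 524 genes, at least 50 in 67 genes and at least 100 in 23 genes. The 10 genes with the most clusters held 6.99% of all pairs of gene and cluster, the first 20 held 11.5% and the first 100 held 27.9%. Of the 6106 genes, 4356 (71.3%) also had a cluster in an exon and 2788 had one in the 3' UTR. For the other 1750 genes no exonic cluster was listed.

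The genes with the most clusters encode proteins of several kinds. Rbfox1, a neuronal splicing regulator on chromosome 16, came first with 313 clusters and 7755 reads. Nrxn3, a presynaptic adhesion molecule, had 231, Ptprd, a receptor phosphatase that organises synapses, had 204, and Celf2, an RNA-binding regulator of splicing, had 195. The postsynaptic scaffold gene Dlg2 had 189 and Csmd1, a membrane protein with complement control domains, had 183. Nrg3, which encodes a neuregulin ligand, had 176, and the cell adhesion gene Opcml of the IgLON family had 163. The proton-gated channel gene Asic2 had 158, the protocadherin gene Pcdh9 had 157 and Phactr1, which encodes a regulator of actin and of protein phosphatase 1, had 151. The order is by number of clusters. In the first 20 genes the median depth of the clusters lay between 16 and 22 reads, close to the median of 18 over all members.

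The other 9 of the first 20 genes had between 107 and 149 clusters. Among them were Kcnip4 (149), a partner of A-type potassium channels, Fgf14 (126), an intracellular modulator of sodium channels, Fam155a (125), an auxiliary subunit of the NALCN sodium leak channel, and the postsynaptic adhesion gene Nlgn1 (123). Rora (117), a nuclear receptor, the synaptic adhesion gene Lrrtm4 (115), the IgLON gene Ntm (115) and Nkain2 (107), which encodes a protein that binds the sodium pump, were others. Kcnip4 had no cluster in an exon, and neither did 2 other genes with at least 50 intron-only clusters, Hs6st3 with 74 and Il1rapl1 with 70, named after their values were seen. Of the 524 genes with at least 10 members, 45 had no exonic cluster.

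Counts were higher in genes with more intron, and genes of like length still differed. Across the 6038 genes with a cluster and annotated introns, the Pearson correlation of log10 count with log10 intron length was 0.578 and Spearman's rho was 0.531; genes share one pooled library set and are not independent replicates. Protein-coding genes with at least 500 kb of intron make up 224 of 20477 genes and 19.8% of all intron bases, and they held 30.8% of the clusters. Their pooled density was 4.36 clusters per 100 kb, against 2.35 in genes with less than 10 kb, 2.23 from 10 to 50 kb, 2.20 from 50 to 200 kb and 2.94 from 200 to 500 kb. At least 1 cluster was found in 93.3% (89.2 to 95.9) of the longest genes, against 7.61% (7.05 to 8.21) of those with less than 10 kb. Over all protein-coding genes the density was 2.81 per 100 kb, and 5835 genes, or 28.5%, had a cluster.

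**Figure D1:**
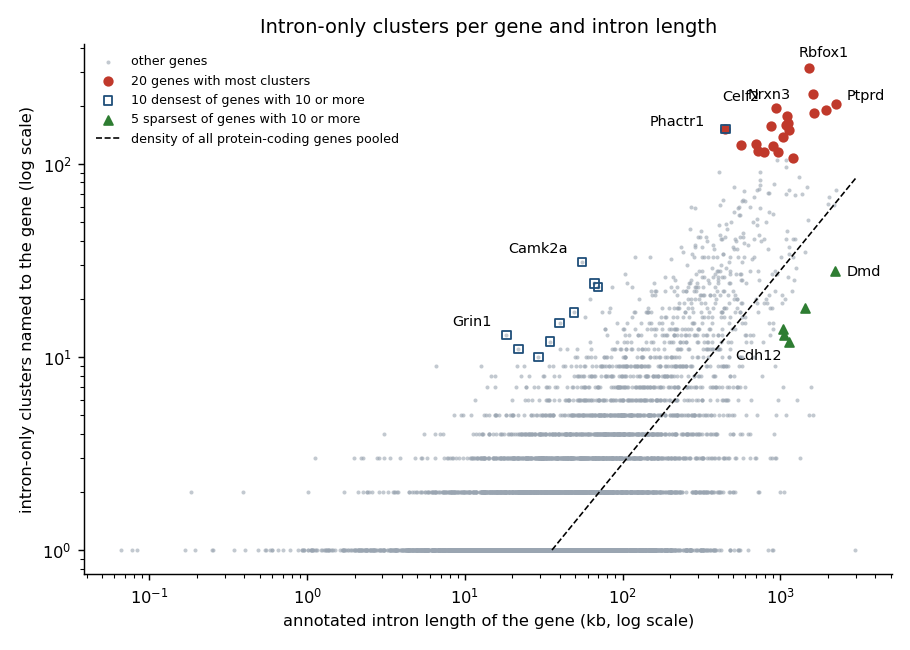
Each point is 1 of the 6038 genes with an intron-only cluster and annotated introns, by its annotated intron length in kb (x axis, log scale) and its number of clusters (y axis, log scale). Red points are the 20 genes with the most clusters, blue squares the 10 densest and green triangles the 5 sparsest of the genes with at least 10, and the dashed line is the pooled density of 2.81 clusters per 100 kb. Long introns go with more clusters, and genes of like length differ, with 12 clusters in the 1134 kb of Cdh12 and 195 in the 944 kb of Celf2; other genes near that length have fewer than 10.

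Density gives a different order. Among the 515 genes with at least 10 clusters and a known intron length, the density had a median of 6.85 per 100 kb (interquartile range 4.32 to 10.5) and ran from 1.06 to 71.0. The requirement of 10 clusters sets a floor under this density that is high for short genes, and at 1000 kb of intron that floor stands at 1 per 100 kb. Of the genes with the most clusters, Phactr1 had 33.7 per 100 kb, Fam155a 22.4, Celf2 20.7, Rbfox1 20.6, Fgf14 18.1 and Pcdh9 18.0, and Ptprd (9.08), Dlg2 (9.66) and Nkain2 (8.94) were the least dense of the 20. At the low end were Cdh12, a cadherin with 12 clusters in 1134 kb of intron (1.06 per 100 kb), Rbms3, an RNA-binding protein (1.24), Dmd, which encodes dystrophin and had 28 clusters in 2233 kb (1.25), and the glypican genes Gpc5 (1.26) and Gpc6 (1.34). These 5 were named after their values were seen. Rbfox1, with 313 clusters, has 1522 kb of intron, less than Dmd.

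The densest genes were shorter. Grin1, the subunit that every NMDA receptor contains, had 13 clusters in 18.3 kb of intron, or 71.0 per 100 kb. Camk2a, the kinase whose promoter drives Cre here, had 31 in 55.1 kb, or 56.3 per 100 kb. Lower in the order came the postsynaptic scaffold Shank1 (37.7), the adhesion receptor Adgrb1 (36.3), the receptor phosphatase Ptprs (34.6), the vesicle priming factor Unc13a (34.6), the nucleic acid-binding protein Purg (34.3), Phactr1 (33.7) and the adhesion molecule Nptn (33.1). All 10 also had clusters in coding sequence, 8 of them in Grin1 and 7 in Camk2a. For genes this short the density rests on 10 to 31 clusters, Phactr1 with 151 being the exception.

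**Figure D2:**
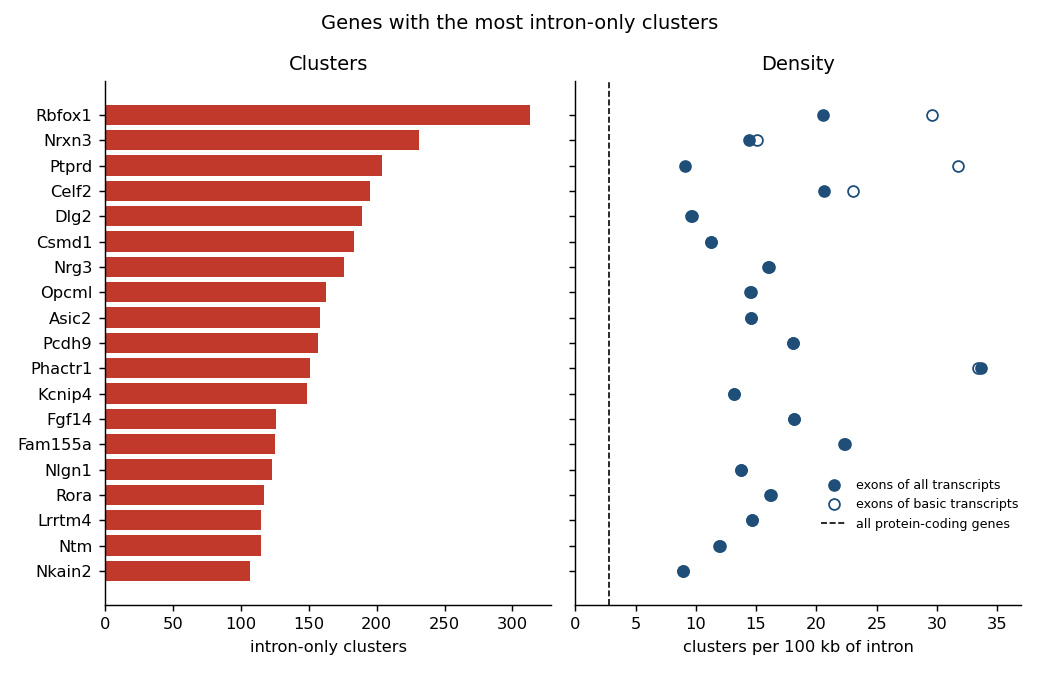
The left panel shows how many intron-only clusters lay in 19 of the 20 leading genes, from 313 in Rbfox1 to 107 in Nkain2, and the right panel their clusters per 100 kb of intron. Filled points take out the exons of all annotated transcripts and open points those of basic transcripts alone, and the dashed line is the 2.81 of all protein-coding genes. All 19 lie to its right, but they were chosen for their many clusters, so this position follows at least in part from the choice. Both kinds of point count all clusters of the gene. The open points stand far from the filled ones for Ptprd (31.8 and 9.08) and Rbfox1 (29.6 and 20.6).

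The intron length that enters a density depends on the annotation. With exons of basic transcripts alone, the gene span of Ptprd shortens, and its clusters over that intron length gave 31.8 per 100 kb, against 9.08 with all transcripts. For Rbfox1 the values were 29.6 with basic transcripts and 20.6 with all, and for Cdh12 they were 2.53 and 1.06. All clusters of a gene entered both values, also any that lie outside the span of its basic transcripts. The values with basic transcripts can therefore be too high, and clusters outside that span were not counted apart.

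Gene families described as lists showed where the members lie, and each list was chosen with results of these data known. The pooled density of every family list was above the 2.81 per 100 kb of all protein-coding genes, many of which are not used in brain. Genes with at least 500 kb of intron pool at 4.36, above the pooled values of the cadherins and the miRNA machinery given below. Splicing and RNA-binding regulators stood at 13.0 per 100 kb, with a cluster in 23 of 27 genes and a median of 5.66 over the genes. Rbfox1 and Celf2 held 313 and 195 of the list's 738 clusters, so the pooled value is mostly theirs. Potassium channels and their partners stood at 9.18 (17 of 19 genes), led by Kcnip4 with 149 and the large-conductance channel Kcnma1 with 73. Postsynaptic scaffolds stood at 7.38 (17 of 19), led by Dlg2 with 189 and Anks1b with 96.

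Neurexins, neuroligins and their partners stood at 7.20 per 100 kb (18 of 20 genes), led by Nrxn3 with 231. Glutamate receptors stood at 6.79 (21 of 24), led by the NMDA receptor subunit Grin2a with 91 and the metabotropic receptor Grm7 with 79; Grin2a reached 22.2 per 100 kb. Voltage-gated calcium channels stood at 6.78 (13 of 15), led by Cacna2d3 with 50 and Cacna1c with 39. IgLON and contactin adhesion genes stood at 6.50 with a cluster in 20 of 20, led by Opcml with 163 and Ntm with 115. Phosphodiesterases stood at 5.35 (13 of 14), led by Pde4d with 51 and Pde10a with 49, and receptor tyrosine phosphatases at 5.25 (14 of 17), led by Ptprd with 204 of the list's 386 clusters and Ptprg with 41. Other long neuronal genes stood at 4.58 (25 of 25), led by Csmd1 and Fgf14, and cadherins and their partners at 3.99 (19 of 21), led by Pcdh9 with 157 of the list's 425 clusters and Ctnnd2 with 71. The genes of the miRNA machinery stood at 4.28 (9 of 12), led by the Argonaute partners Tnrc6b with 8 and Tnrc6c with 7. The median over the genes was 2.16 for the cadherins and 2.41 for the miRNA machinery, both under the pooled 2.81, while the median over all protein-coding genes was 0. Hosts of intronic brain miRNAs stood at 4.85 (21 of 28), led by Slit3 with 42 and Ptprn2 with 41.

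The cell type named in the labels was set against marker genes. Markers of excitatory forebrain neurons held 39 clusters in 5 of 6 genes (11.8 per 100 kb), of which Camk2a held 31 and Bcl11b 5. Striatal projection neuron markers held 56 in 4 of 6 (9.30), of which Pde10a held 49 and Rgs9 4, and interneuron markers held 6 in 3 of 6 (4.64), with 3 in Gad1 and 2 in Gad2. Markers of glia were not empty: astrocyte markers held 38 in 3 of 6 genes (11.3 per 100 kb), with 33 in the glutamate transporter gene Slc1a2 and 4 in Slc1a3, and oligodendrocyte markers held 14 in 5 of 6 (8.04), with 7 in Mbp. Endothelial markers held 6 in 3 of 6 (1.34), with 3 in Flt1 and 2 in Kdr. Microglia markers held 0 clusters in 6 genes with 243 kb of intron. The table does not separate the Flag-Ago2 libraries from the controls, so the part that cells without tagged Ago2 have in these clusters was not tested. In whole forebrain, fewer cells of a type and less RNA per cell cannot be told apart.

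**Figure D3:**
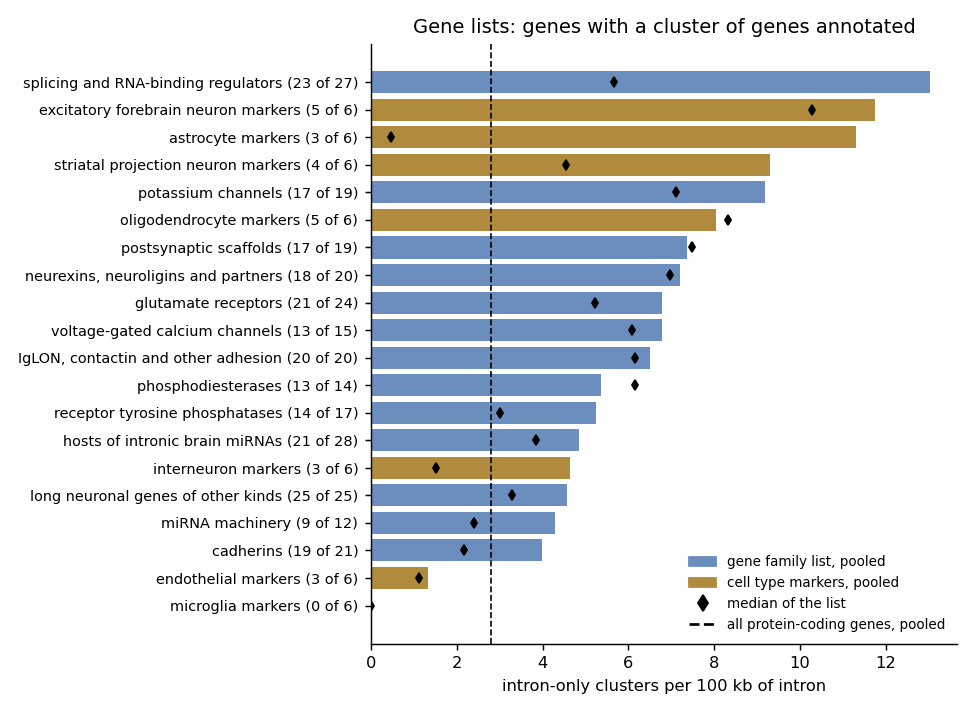
Bars show the intron-only clusters per 100 kb of intron pooled over each gene list (blue for families, brown for cell type markers), diamonds the median of the list's genes, and the dashed line the 2.81 of all protein-coding genes. Numbers in brackets give the genes with a cluster among those annotated; splicing and RNA-binding regulators reach 13.0 with a median of 5.66, and microglia markers stand at 0.

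Chromosomes differed in density. Per Mb of protein-coding intron, chromosome X held 13.9 members, against 22.1 to 39.1 on the 19 autosomes, of which chromosome 16, with Rbfox1, was highest. The Y chromosome held 22 members. The labels give no sex of the mice, and its part in these values was not tested.

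Within long genes, the clusters thinned out from the 5' end to the 3' end. In 477 genes with at least 10 members and a span of at least 100 kb, the gene span was cut into 10 equal bins. The density was 9.56 clusters per 100 kb of intron in bin 1 at the 5' end, 8.39 in bin 2, 6.47 in bins 5 and 6, 4.48 in bin 9 and 4.16 in bin 10. Bins 5 and 6 were alike, and at every other step the density was lower than at the one before. Gene by gene, 328 of the 477 genes, or 68.8%, were denser in bins 1 to 5 than in bins 6 to 10, and in the genes with clusters in both the median ratio of the first 5 bins over the last 5 was 1.50. The median depth was 20 reads in bin 1 and 18 in bin 10.

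Of the 20 genes with the most clusters, 15 were denser on the 5' side of the middle of the gene and 5 on the 3' side. Csmd1 had 155 clusters on the 5' side and 28 on the 3' side. Rora had 94 on the 5' side and 23 on the 3' side, Phactr1 had 109 and 42, Nrg3 had 125 and 51, and Fam155a had 91 and 34. Denser on the 3' side were Nlgn1, with 38 on the 5' side and 85 on the 3' side, Dlg2 with 78 and 111, and Nrxn3 with 104 and 127. Rbfox1 and Celf2 were nearly even, Rbfox1 with 147 on the 5' side and 164 on the 3' side and Celf2 with 94 and 101.

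Members lay mostly in long introns. The midpoint of 26615 members fell in an intron of the named gene, and the median length of these introns was 48480 bases (interquartile range 9359 to 148433). The median distance to the nearest splice site was 8330 bases. Neither median was computed for intron bases, so both describe the members alone. Beyond 50000 bases from the 5' splice site lay 24.9% of members. The share of intron bases there was 25.4%, with each gene weighted by its members. A splice site was within 500 bases for 11.8% (11.4 to 12.2) of members, against 13.1% of the intron bases of the same genes when each gene is weighted by its number of members. The first 100 bases of introns held 0.533 times their share of members at the 5' splice site and 0.552 times at the 3' splice site. The rule leaves out any cluster that also touches coding sequence or a UTR, and a cluster of median width centred there reaches the exon or comes near it, so a low value next to exons follows in part from the rule. From 100 to 1000 bases after the 5' splice site the ratio lay between 1.07 and 1.11. From 200 to 50000 bases before the 3' splice site it lay between 0.824 and 0.917, and beyond 50000 bases from that site it was 1.38. First introns held 20.2% (19.7 to 20.7) of members, against 17.6% of intron bases, and last introns held 4.68%, against 5.16%.

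**Figure D4:**
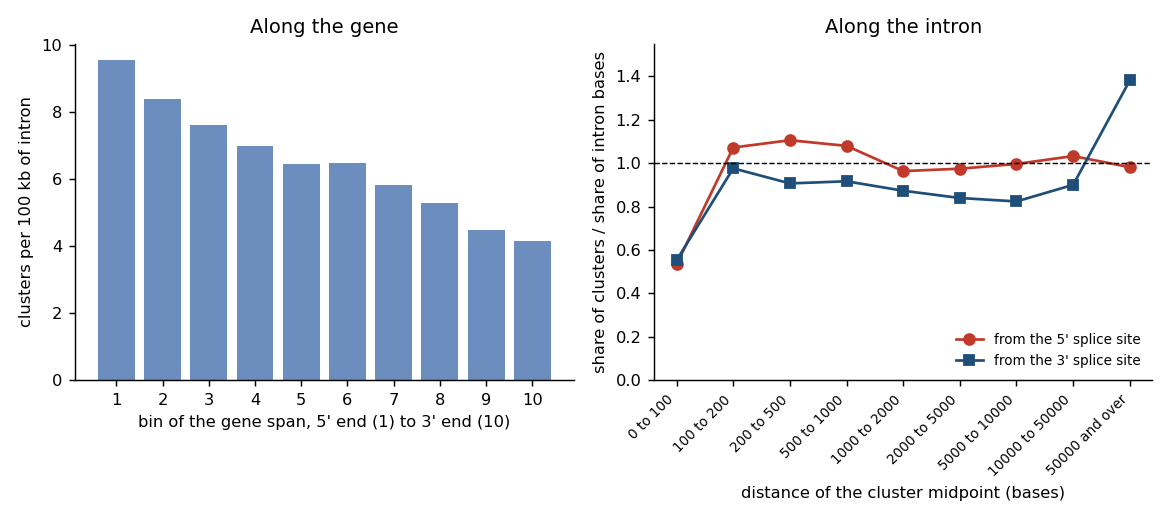
The left panel shows clusters per 100 kb of intron in each of 10 bins of the gene span, from the 5' end on the left to the 3' end, pooled over 477 genes. The right panel shows the share of clusters over the share of intron bases by distance of the cluster midpoint from the 5' splice site (red circles) and the 3' splice site (blue squares), with equality at the dashed line. The density falls over the gene, with 9.56 in bin 1 and 4.16 in bin 10, and the ratio is lowest within 100 bases of either splice site and highest, at 1.38, far from the 3' splice site.

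The nearest other member on the same strand lay within 1000 bases for 20.7% of members and within 10000 bases for 68.6%. The shares that evenly spread members would give were not computed, so these values describe spacing alone. The densest stretches of 10000 bases held 12 members in Celf2 (chr2:6859004-6868773), 11 in Phactr1 (chr13:42796798-42806317) and 11 in Rasgrf1 (chr9:89954744-89963045), which encodes a neuronal exchange factor for Ras. Rasgrf1 was named after its value was seen. The Rasgrf1 stretch held 490 reads, the Phactr1 stretch 239 and the Celf2 stretch 221.

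The deepest intron-only cluster was also among the narrowest. It lay in Kifc2, which encodes a kinesin motor protein, at chr15:76661902-76661910 on the plus strand, and held 4720 reads in 9 bases of a 73-base intron. A width under 20 bases was found for 3 members in all, and the other 2, of 18 and 6 bases, held 71 and 12 reads. The Kifc2 cluster held no match to miR-128, miR-27, miR-29, miR-124, let-7 or miR-9. The second, with 2112 reads, lay in the second intron of Kcnip4 at chr5:49026618-49026763, 258562 bases from the 5' splice site. That cluster, 146 bases wide, held no match to miR-128, miR-27, miR-29, miR-124, let-7 or miR-9 either. A further Kcnip4 cluster of 350 reads lay near it at chr5:49025657-49025859 and matched both miR-128 and miR-27. Kcnip4 and Dlg2 each had 4 members with at least 100 reads, the most of any gene.

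Among the other 8 of the 10 deepest, 5 carried a match to both miR-128 and miR-27. These were the clusters in C77370, listed as Nexmif in RefSeq (2012 reads, chrX:104159059-104159180), in Bdp1, a subunit of the RNA polymerase III factor TFIIIB (1041 reads, chr13:100044477-100044605), in the IgLON gene Negr1 (1001 reads, chr3:157195351-157195531), in Fgf14 (651 reads, chr14:124653463-124653571) and in Slc35f4, a solute carrier gene (431 reads, chr14:49384352-49384476). The cluster in Ppp2r3c, a regulatory subunit of protein phosphatase 2A, held 420 reads and matched miR-27. The cluster in Dab1, the adaptor of the Reelin pathway, held 808 reads and matched miR-181 once. The remaining one lay in Lpp over a miRNA gene.

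Intronic miRNA genes gave few members. RefSeq places 1072 miRNA genes in the table used here, and 488 of them lie within an intron of a host gene on the same strand. Any cluster of the table overlapped 10 of these 488, and an intron-only cluster overlapped 5. The deepest was the cluster of 646 reads in Lpp at chr16:24827838-24827963, which spans Mir28a, whose arms are shown above. The cluster of 376 reads in Gripap1 at chrX:7807112-7807231 overlaps Mir1198. The members over Mir12184, Gm51280 and Mir5125 held 38, 35 and 24 reads, and one of 79 reads lay over Mir12193, which is not among the 488. By the GENCODE annotation, 45 members overlapped a small RNA gene: 21 a small nucleolar RNA, 10 a miRNA, 8 a small nuclear RNA, 3 a Cajal body RNA and 3 a ribosomal RNA. The deepest over a small nucleolar RNA gene held 114 reads, in Qtrt2. Members over small RNA genes were 0.162% of all, and reads from the hairpin and from the host intron cannot be told apart.

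Seed matches were read from the 1281 miRNA columns of the table, which hold 885 distinct columns. In the 1141 members that lie inside a GENCODE transcript, a recount of the 6-mers gave the table's number in 1138 for miR-128, 1134 for miR-27, 1133 for miR-29, 1139 for let-7 and 1137 for miR-9. The table was higher in the rest. A match to miR-128 was found in 11.4% of members, to miR-27 in 10.3%, to miR-29 in 7.41%, to miR-124 in 5.11%, to miR-9 in 4.35% and to let-7 in 1.88%. Such shares depend first on how often a 6-mer occurs in intron sequence, for which no genome was at hand, so clusters of different depth were compared instead.

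The deepest intron-only clusters carried seed matches of several brain miRNAs more often than the shallowest. A miR-128 match was found in 66 of 214 members with at least 100 reads, or 30.8% (25.0 to 37.3), against 1000 of 9703 with 10 to 14 reads, or 10.3% (9.72 to 10.9). The shares between were 10.9% at 15 to 19 reads, 10.9% at 20 to 29, 13.1% at 30 to 49 and 17.1% at 50 to 99. For miR-27 the share was 26.6% (21.2 to 32.9) with at least 100 reads, against 9.18% (8.62 to 9.77) with 10 to 14. For miR-124 it was 12.6% (8.82 to 17.7) against 5.02% (4.60 to 5.47), and for let-7 5.14% (2.89 to 8.97) against 1.84% (1.60 to 2.13). For miR-29 it was 11.7% (8.04 to 16.7) against 6.97% (6.48 to 7.49), and for miR-9 5.14% (2.89 to 8.97) against 3.91% (3.54 to 4.31), where the intervals overlap. The median width was 128 bases with at least 100 reads and 119 with 10 to 14. In all, the 214 deepest members span 34.1 kb and the 9703 shallowest 1285 kb, and a few deep members are far wider than the median. A wider cluster has more room for a match, and the part of width in these shares was not tested.

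**Figure D5:**
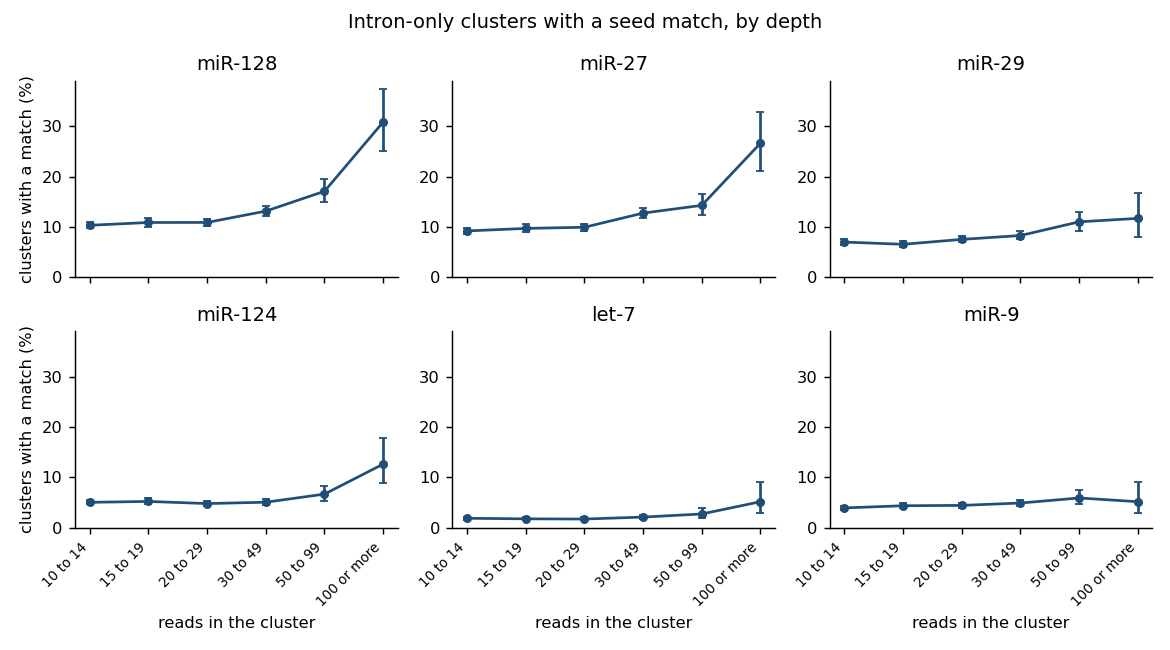
Each panel shows the share of intron-only clusters with at least 1 match to a seed (y axis, percent) by the reads in the cluster (x axis, from 10 to 14 up to 100 or more), with 95% Wilson intervals for counting error. The shares for miR-128 and miR-27 climb to 30.8% and 26.6% in the 214 deepest clusters, and the share for miR-9 lies between 3.91% at 10 to 14 reads and 5.88% at 50 to 99.

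The families of the lists were ordered by the ratio of these shares, at least 100 reads over 10 to 14 reads. The highest ratios were those of miR-128 (2.99), miR-27 (2.90), let-7 (2.79), miR-124 (2.51) and miR-26 (2.21). The lowest were miR-138 (0.515), miR-194 (0.591), miR-192 (0.756), miR-22 (0.826) and miR-125 (0.916); miR-138, miR-22 and miR-125 are brain families too. The median ratio was 1.49 over the 25 brain families, of which 20 were above 1, and 1.16 over the 15 families of other tissues, of which 11 were. Over the 764 distinct columns with a match in at least 300 members it was 1.14 (interquartile range 0.869 to 1.46), so a ratio somewhat above 1 is usual in these clusters. By rank among the 764, miR-128 stood at 3, miR-27 at 4, let-7 at 5, miR-124 at 12 and miR-29 at 112. The ratio of miR-9 stood at rank 262. The first places belonged to miR-3962 (3.17) and miR-5624-3p (3.01), which rest on 7 and 16 deep clusters. That of miR-128 rests on 66 deep clusters, of miR-27 on 57, of miR-124 on 27 and of let-7 on 11. After let-7 came miR-5615-3p at rank 6 (2.76, on 31 deep clusters) and miR-770-5p at rank 7 (2.70, on 27), neither of them on the lists. The seed of miR-3962, GGUAGU, also occurs within the let-7a sequence shown above, and that of miR-770-5p, GCACCA, within the miR-29a sequence. A single stretch of RNA can therefore match both miRNAs of such a pair, and their ranks are not independent of each other.

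The matches to miR-128 and miR-27 came together in the deepest members. Of the 66 members with at least 100 reads and a miR-128 match, 43 also matched miR-27, or 65.2% (53.1 to 75.5), against 358 of 1000, or 35.8% (32.9 to 38.8), with 10 to 14 reads. Without the members that match miR-27, the ratio for miR-128 was 2.01. Seen from miR-27, 43 of its 57 members with at least 100 reads also matched miR-128, against 358 of 891 with 10 to 14 reads. The ratio for miR-27 without the members that match miR-128 was not computed. Whether miR-27 differs with depth apart from miR-128 was therefore not tested. A match to miR-128, miR-27 or miR-29 was found in 96 of the 214 deepest, or 44.9% (38.3 to 51.6), against 21.7% (20.9 to 22.5) of the shallowest. No match to any listed brain family was found in 12.1% (8.43 to 17.2) of the deepest, against 34.2% (33.3 to 35.2) of the shallowest. The part of cluster width in these shares was not tested.

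A few members carried many copies of a seed match. For miR-29, 75 of the 99 matches in members with at least 100 reads lay in 5 clusters, among them 34 in 2310022A10Rik (chr7:27556786-27558327), which also held 41 miR-128 matches, and 21 in Panx1 (chr9:15035415-15035960). A pair of Stx6 clusters next to each other held 14 and 15 miR-27 matches and 7 miR-29 matches each. These 3 genes were named after their values were seen. For this reason shares of members are given rather than matches per kb, which put the ratio at 5.23 for miR-29 and 4.11 for miR-128. In matches per kb the ratio was 3.54 for miR-27, 2.48 for let-7, 2.22 for miR-124 and 1.06 for miR-9.

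Deep clusters of other regions carried the same seeds at shares of their own, and the difference between regions was not tested. With at least 100 reads, the miR-128 share was 30.8% in intron-only clusters, against 36.2% (17 of 47, with an upper bound of 50.5%) in intron clusters with a circRNA identifier, 24.8% (19.9 to 30.5) in 3' UTR clusters, 27.9% (23.1 to 33.2) in coding sequence and 27.6% (20.5 to 35.9) in clusters without annotation. These intervals overlap. For miR-124 the share was 12.6% in intron-only clusters, against 6.38% (2.19 to 17.2) in those with a circRNA identifier, 22.8% (18.0 to 28.4) in 3' UTR clusters, 10.7% (7.71 to 14.8) in coding sequence and 4.72% (2.18 to 9.92) without annotation. For miR-9 it was 5.14% in intron-only clusters, against 0 of 47 with a circRNA identifier (Wilson upper bound 7.56%), 11.6% (8.20 to 16.2) in 3' UTR clusters, 12.4% (9.14 to 16.6) in coding sequence and 6.30% (3.23 to 11.9) without annotation.

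Some members were rich in repeated 6-mers. A single 6-mer was present at least 5 times in 3062 members, or 11.0% (10.7 to 11.4), against 3.68% of 3' UTR clusters, 1.50% of those in coding sequence and 44.9% of those without annotation. Among members with at least 100 reads the share was 7.94% (5.02 to 12.4), against 13.0% (12.3 to 13.7) with 10 to 14 reads. Between them the share was 11.7% at 15 to 19 reads, 8.96% at 20 to 29, 9.39% at 30 to 49 and 11.3% (9.50 to 13.4) at 50 to 99, so it did not fall steadily with depth. The repeated 6-mer ACACAC, the site of miR-466d-5p, stood at 0.908 matches per kb with at least 100 reads, against 7.81 with 10 to 14 reads. The 6-mer CTCTCT, the site of miR-881-5p, stood at 0.293 against 7.71. The 6-mer GTGTGT, the reverse complement of ACACAC and the site of miR-329-3p, varied far less, with 3.37 against 3.84. As shares of members, ACACAC was found in 4.67% with at least 100 reads, against 7.96% with 10 to 14 reads. For CTCTCT the shares were 4.21% and 8.65%, and for GTGTGT 11.7% and 9.84%. For ACACAC and CTCTCT the shares therefore differ far less than the matches per kb do. Without the members in which some 6-mer occurs at least 5 times, the depth ratio was 2.76 for miR-128, 2.66 for miR-27, 2.65 for miR-124, 3.14 for let-7 and 1.21 for miR-9. For miR-29 it was 1.28 without them, against 1.68 with them, which is nearer to the median of 1.14 over the 764 columns. The other families and columns were not recomputed in this way.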

How the data were processed

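The authors' deposited table holds whole-number read counts per cluster, pooled over libraries it does not name. The submitters' processing notes name BWA and the build mm10. The BWA version, the calling of clusters, the part of the controls and the treatment of PCR duplicates are not stated in these sources. Per the file headers, the table also gives the genes touched per region and, for 1281 miRNAs, a match number per cluster. Total depth is 1834586 reads, with no depth per library.

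The members, gene lists and rules for naming were chosen with earlier results of these data known. Named are the 20 genes with most members, the 10 densest with at least 10 members, the 10 deepest members, 2 genes of each list, miRNA genes under members of at least 100 reads, and the 5 highest and 5 lowest family ratios. Some genes that these rules would name are not reported here.

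Of 6106 gene names, 6042 were matched by symbol or RefSeq synonym to a GENCODE M21 gene on the same strand. Introns are the gene span outside exons of all transcripts. Coordinates are 1-based. Python 3.11.15, pandas 2.3.3, NumPy 2.4.6, SciPy 1.17.1 and matplotlib 3.10.9 were used, and the position and overlap code was tested on simulated data. The planned test of Flag-Ago2 against control by edgeR needed counts per library and was not run. The planned comparison of seed matches with flanking sequence needed a genome, which was not used here, and was replaced by the comparison by depth.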

Additional observations from a re-analysis of the deposited data

How the results depend on the processing

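No paired analysis was possible because the table holds no column of a single library, and for the same reason no library could be left out and no background in control mice could be given. The flanking windows, the longer 7-base match and the repeat-masked setting of the seed comparison were not run, since they need a genome, and the settings by depth were chosen after seeing the data. Of 110 alternative values, 86 stayed within the counting interval or, for counts, within 1.5 times the value given, and 24 moved; none changed direction. Read depth limits all of them, as 10 reads is the lowest value listed.

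With at least 20 reads, 12829 clusters in 3946 genes were counted, the median density was 4.07 per 100 kb, 23 lay over small RNA genes, 33.6% of the reads were intron-only and 11.2% of members lay within 500 bases of a splice site. The share with a match was then 12.5% for miR-128, 8.11% for miR-29, 11.5% for miR-27 and 4.70% for miR-9. The share of reads was 34.9% without members opposite another gene, 41.4% with circRNA clusters kept, 33.3% without any annotated exon base and 33.4% without the 100 deepest. The share near a splice site was 12.7% with circRNA clusters kept, 11.4% without exon bases and 4.91% within 200 bases. Without exon bases 0 members lay over small RNA genes, which follows from the setting, since a small RNA gene is itself an exon. At 50 reads or more in place of 100, the depth ratio was 1.88 for miR-128, 1.78 for miR-27 and 1.53 for miR-124. In matches per kb it was 4.11 for miR-128 and 5.23 for miR-29. Without members that match miR-27 it was 2.01 for miR-128. The cause of these shifts was not tested.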
